A study of Mus musculus with 14 samples.

Results

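Cadherins and protocadherins are surface proteins whose outer parts hold repeated calcium-binding modules and by which cells recognise and adhere to one another. They were followed here across 7 pools of neurons of the medial vestibular nucleus, a mouse brainstem region that handles signals of head motion. The family was taken as all genes whose symbol in the array annotation begins with Cdh and a digit, or with Pcdh and a further letter or digit, which gave 46 of the 16244 genes on the arrays. Each gene was read by 1 probe set, the one with the highest mean over all arrays. Of the 46 genes, 12 (26.1%) had a pool mean of at least 5 (log2 signal) somewhere among the 7 pools, beside 27.1% of all genes.

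The study sorted single neurons into types by their transmitter-related genes, ion channels and type markers, and pooled the amplified cDNA of each type. The excitatory types are E1 and E2. The inhibitory ones are I1a and I1b, then I2, and lastly I3a with I3b. Every pool is labelled with the same 3 reporter lines, YFP-16, GIN and GlyT2-13, aged 24 to 32 days and of C57BL/6 strain, and the labels give no treatment. Their reporters are driven from Thy1 (YFP-16), Gad1 (GIN) and Slc6a5 (GlyT2-13) regulatory DNA, so cells without a reporter may be missed, and which line gave the cells of which pool is not stated. The number of cells in a pool is not stated either. Each pool was put on 2 arrays as technical replicates, for 14 arrays. A type is thus known from 1 pool, and a difference between pools can reflect fewer cells with a transcript or less of it per cell, which cannot be told apart. Because the arrays of a pool are technical repeats, their spread holds no difference between animals. The type E3 was not analysed here.

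Classical cadherins join cells by binding a like molecule on the neighbouring cell, and their inner tails hold beta-catenin and alpha-catenin, which link them to actin. They are divided into type I, among them N-cadherin (Cdh2), and type II, which neurons use in particular combinations. The delta-protocadherins lack the catenin-binding tail and act more through cytoskeletal regulators such as the WAVE complex. Clustered protocadherins lie in the alpha, beta and gamma gene clusters, from which single neurons choose a few members each, so that cells of one type can differ.

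Arrays of the same pool correlated across the 4409 genes that reached 5 at r = 0.982 to 0.992, given without a p because genes are not independent replicates. The lowest value, 2.387, is a floor shared by many probe sets, so contrasts with a pool at the floor are set in size by it. In the neuronal pools Snap25, a protein of synaptic release, stood at 12.4 to 13.57. Other neuronal markers were uneven: Rbfox3, a splicing factor of neurons, ran from 5.39 in I3b to 10.78 in E2, and Syt1, a calcium sensor of release, from 6.68 in I3a to 11.47 in E2. Their part in the results was not tested. The levels of Slc17a6, the glutamate transporter that marks excitatory neurons here, were 11.11 for E1 and 10.98 for E2, but I1b also read 10.48, I1a 8.60 and I3a 6.93. Genes of GABA and glycine transmission were also read in the E pools, below their levels in the I pools. Gad1 stood at 7.80 in E1 and 6.80 in E2, against 10.75 to 12.38 in the I pools. Slc32a1 read 6.60 and 5.41, against 9.20 to 9.76. Gad2 read 5.72 and 6.43, against 7.92 to 9.33. Slc6a5 read 6.31 and 3.33, against 7.53 to 8.47. The study chose cells by such genes. Of 21 markers of astrocytes, oligodendrocytes and their precursors, microglia, endothelium and cerebellar neurons on the arrays, none reached 5 in a pool, and the highest were Gja1, a gap junction gene of astrocytes, at 4.19 in I3a and Pdgfra, a receptor of oligodendrocyte precursors, at 3.82 in I1a. The astrocyte genes Gfap, Aqp4, Aldh1l1 and Slc1a3 read 2.45 or below in every pool. Bacterial control transcripts differed between pools as well: Lys ran from 10.37 in E2 to 12.003 in I3a. Dap ran from 4.57 in I1a to 6.33 in I2. BioB, BioC and BioDn were each lowest in I2 and highest in I3a, with BioB at 7.74 and 9.62. The part of these controls in the differences below was not tested.

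The sequences before the start sites of Pcdh8, Pcdh10 and Pcdh17 are shown because these 3 delta-2 protocadherins differed most among the pools within their subfamily. They are the 250 bases before the annotated start in RefSeq (GRCm38.p6), written in the direction of the gene. The windows lie at chr14:79771313-79771562 (minus strand) for Pcdh8, chr3:45378148-45378397 (plus strand) for Pcdh10 and chr14:84443313-84443562 (plus strand) for Pcdh17. Capitals mark CCAAT, which every one of these windows holds on the opposite strand and so shows as its reverse complement, and TATAAA. Both motifs were searched on both strands, do not overlap each other here, and were chosen after these sequences had been seen.
Pcdh8: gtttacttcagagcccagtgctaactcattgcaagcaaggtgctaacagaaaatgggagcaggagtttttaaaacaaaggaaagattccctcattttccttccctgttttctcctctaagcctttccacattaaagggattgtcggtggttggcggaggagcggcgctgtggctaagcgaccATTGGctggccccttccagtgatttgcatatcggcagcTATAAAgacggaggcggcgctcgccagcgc
Pcdh10: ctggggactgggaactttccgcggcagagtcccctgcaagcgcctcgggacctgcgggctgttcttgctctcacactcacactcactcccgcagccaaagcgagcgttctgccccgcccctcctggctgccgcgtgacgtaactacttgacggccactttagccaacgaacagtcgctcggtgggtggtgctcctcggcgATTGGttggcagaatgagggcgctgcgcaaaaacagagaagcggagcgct
Pcdh17: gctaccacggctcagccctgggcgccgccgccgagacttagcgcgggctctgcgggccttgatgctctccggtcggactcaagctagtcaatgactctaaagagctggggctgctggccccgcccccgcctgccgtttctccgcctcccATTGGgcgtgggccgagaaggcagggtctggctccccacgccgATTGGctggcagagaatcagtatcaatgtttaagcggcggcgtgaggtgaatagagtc
The Pcdh8 window held 1 CCAAT and 1 TATAAA, the latter beginning 30 bases before the start. The Pcdh10 window held 1 CCAAT, and the Pcdh17 window 2, and neither held TATAAA. Over all 32851 windows of this length in the table, 33.8% held CCAAT and 12.4% held TATAAA. The core bound by basic helix-loop-helix factors, CANNTG, was found in 66.2% of all windows and in none of these 3, which says only that the letters are absent from these windows. The dinucleotide CG occurred 11 times before Pcdh8, 22 times before Pcdh10 and 21 times before Pcdh17, beside a median of 6.0 over all windows. Of the 12 genes at 5 or more, 7 had a window in the table.

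The 12 genes that reached 5 were 1 of 5 type I cadherins (Cdh2), 2 of 11 type II cadherins (Cdh7 and Cdh10), 2 of 4 delta-1 protocadherins (Pcdh9 and Pcdh11x), 4 of 5 delta-2 protocadherins (Pcdh8, Pcdh10, Pcdh17 and Pcdh19) and 3 of 15 clustered protocadherins (Pcdhb9, Pcdhb17 and Pcdhb22). None of 4 other cadherins or 2 other single protocadherins did. Just inside the threshold lay Pcdh19, with its highest pool at 5.35. Just outside lay Cdh6, at 4.60 in I2. Of the 34 genes below 5, 26 stayed under 3 in every pool, among them Cdh5, the cadherin of endothelial junctions, at 2.43 or below, and Cdh1, the epithelial cadherin. A low reading on an array does not show that a transcript is absent.

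The genes at 5 or more in all 7 pools were these 4: Cdh2, Pcdh9, Pcdh11x and Pcdhb22.

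**Figure D1:**
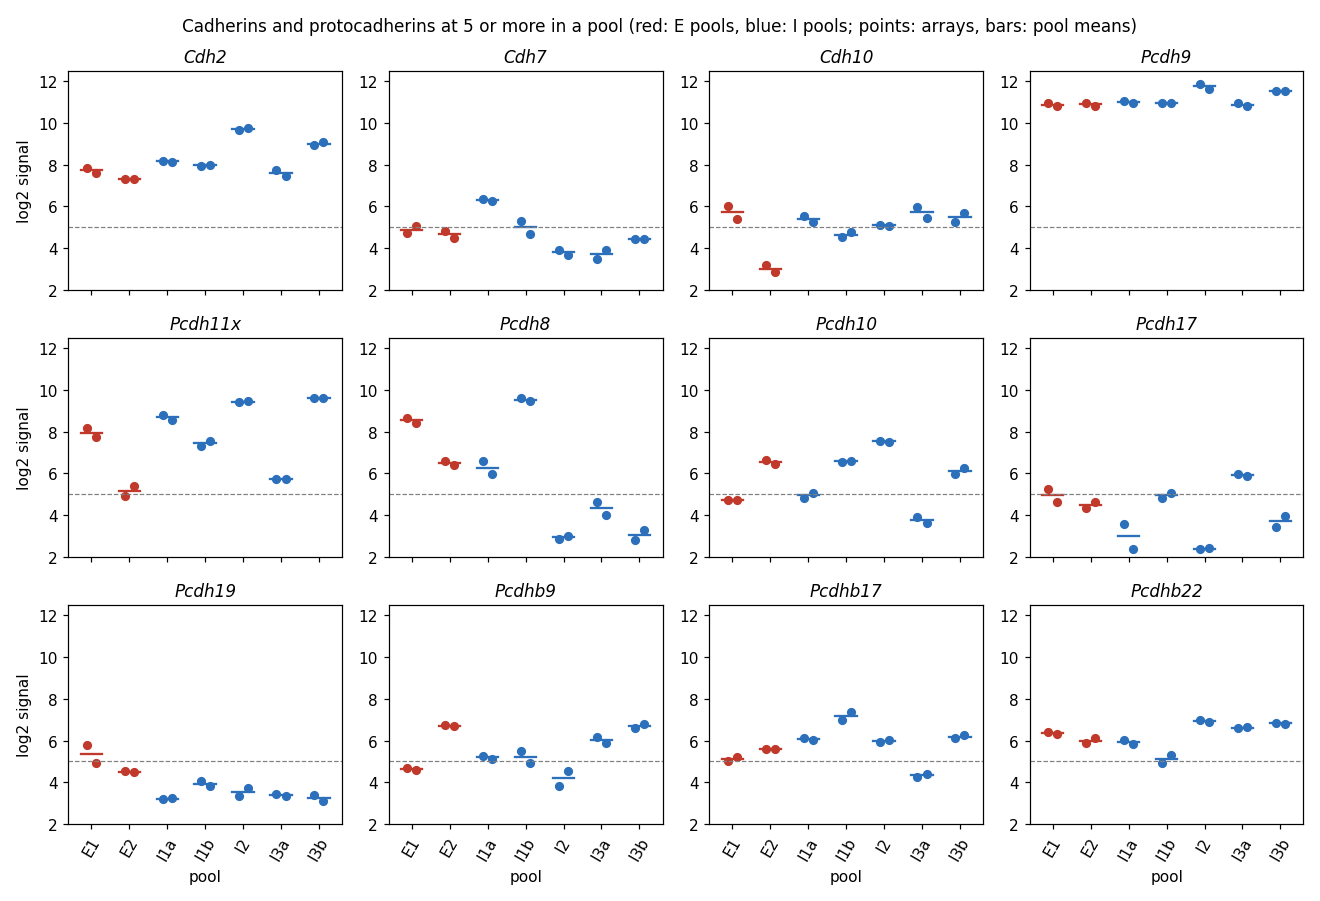
Log2 signal of the 12 cadherin and protocadherin genes at 5 or more in a pool, with the 7 pools on the x axis, a point for each of the 2 arrays of a pool, a bar for the pool mean and a dashed line at 5. Pcdh8 runs from 2.93 in I2 to 9.53 in I1b, while Pcdh9 stays between 10.87 and 11.77 in all pools.

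Cdh2 encodes N-cadherin, the classical cadherin of most neurons and their synapses (Entrez gene 12558, chromosome 18). Its arrays read 9.66 and 9.78 in I2, and 8.94 and 9.08 in I3b. The I1a arrays read 8.17 and 8.13 and the I1b arrays 7.95 and 8.01. Lower still were the pairs 7.73 and 7.44 in I3a, 7.86 and 7.60 in E1, and 7.33 and 7.30 in E2. I2 and then I3b stood above the other pools, with no overlap of arrays, and E1 and I3a overlapped. The standard deviation between arrays of a pool was 0.12.

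Cdh7 is a type II cadherin (Entrez gene 241201, chromosome 1, positions 109982237 to 110145272, all positions being those of RefSeq on GRCm38.p6). Its pool mean passed 5 in I1a alone, where the arrays read 6.33 and 6.24. The arrays read 5.30 and 4.69 in I1b, 4.71 and 5.06 in E1, 4.83 and 4.495 in E2, 4.43 and 4.45 in I3b, 3.92 and 3.68 in I2, and 3.49 and 3.92 in I3a. I1a lay above all other arrays, and the arrays of I1b, E1 and E2 overlapped in that order.

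Cdh10, another type II cadherin (Entrez gene 320873, chromosome 15, positions 18818869 to 19016206), had the opposite shape, 1 low pool among 7. Its E2 arrays read 3.17 and 2.83. Those of E1 read 6.02 and 5.41, those of I3a 5.96 and 5.45, of I3b 5.26 and 5.70, of I1a 5.54 and 5.26, of I2 5.13 and 5.08, and of I1b 4.52 and 4.76. E2 lay at least 1 log2 unit below every array of the other pools, which held for 4 of the 4409 genes (0.0907%). This low mark was looked for in all 7 pools. It was met by 9 of the 4409 genes in E1, 9 in I1a, 2 in I1b, 50 in I2, 23 in I3a and 6 in I3b, with no family gene among them. No family gene lay at least 1 unit above all other pools on both arrays of a pool, a mark that 0.068% of genes reached in I1b, the fewest, and 2.99% in I2, the most. With arrays centred on their median or quantile normalised, Cdh7 in I1a did so as well.

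Pcdh9 and Pcdh11x are delta-1 protocadherins. Pcdh9 (Entrez gene 211712, chromosome 14, positions 93013700 to 93892834) had the narrowest range of the 12 genes, 0.90 log2 units over the pool means. It read 11.89 and 11.65 in I2 and 11.55 and 11.53 in I3b, above all other arrays, which ran from 10.79 to 11.06.

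Pcdh11x (Entrez gene 245578, chromosome X, positions 120290238 to 120910622) ranged over 4.45 log2 units. Its arrays read 9.61 and 9.64 in I3b, 9.41 and 9.46 in I2, 8.82 and 8.56 in I1a, and 8.16 and 7.75 in E1. The I1b arrays gave 7.30 and 7.58, those of I3a 5.74 and 5.71, and those of E2 4.93 and 5.42. No neighbours in this order overlapped, and the I3 pools stood at both ends of the inhibitory types.

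The delta-2 protocadherins Pcdh8, Pcdh10, Pcdh17 and Pcdh19 are adhesion proteins with roles in axon growth and synapses. Pcdh8, also known as arcadlin, is induced by activity and promotes the uptake of N-cadherin from synapses (Entrez gene 18530, chromosome 14, positions 79766772 to 79771312). It had the widest range of the 12 genes, 6.60 log2 units. The arrays read 9.61 and 9.46 in I1b, 8.68 and 8.44 in E1, 6.61 and 6.38 in E2, and 6.58 and 5.97 in I1a. They read 4.62 and 4.02 in I3a, 2.81 and 3.28 in I3b, and 2.88 and 2.99 in I2. E1, E2, I1a and I1b lay above the 3 other pools, and I2 and I3b were near the floor.

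Pcdh10, which recruits the WAVE complex (Entrez gene 18526, chromosome 3, positions 45378398 to 45434579), read 7.57 and 7.50 in I2. It read 6.56 and 6.60 in I1b, 6.64 and 6.45 in E2, 5.98 and 6.24 in I3b, 4.84 and 5.05 in I1a, 4.74 and 4.72 in E1, and 3.92 and 3.62 in I3a. Only I1b and E2 overlapped among neighbours in this order.

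Pcdh17 (Entrez gene 219228, chromosome 14, positions 84443563 to 84537565) had a pool mean over 5 in I3a alone, where the arrays read 5.98 and 5.87. The arrays read 5.26 and 4.65 in E1, 4.82 and 5.07 in I1b, 4.32 and 4.63 in E2, 3.44 and 3.96 in I3b, and 3.58 and 2.39 in I1a. In I2 they read 2.39 and 2.402, at or next to the floor. The arrays of I1a differed by more than 1 unit, and overlapped with those of I3b and I2. Gja1 was also at its highest in I3a, beside astrocyte genes at the floor as given above.

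Pcdh19 (Entrez gene 279653, chromosome X, positions 133582860 to 133689044), mutated in a form of epilepsy, had a pool mean over 5 in E1 alone. Its E1 arrays read 5.77 and 4.93. It read 4.54 and 4.48 in E2, 4.04 and 3.84 in I1b, 3.36 and 3.74 in I2, 3.45 and 3.36 in I3a, 3.39 and 3.12 in I3b, and 3.20 and 3.23 in I1a. Both E pools lay above all I arrays.

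The 3 beta-cluster genes on chromosome 18 are single-exon genes of closely similar sequence, so cross-hybridisation between them was not tested. Pcdhb9 (Entrez gene 93880) read 6.73 and 6.71 in E2, 6.62 and 6.77 in I3b, and 6.18 and 5.88 in I3a. The I1a arrays gave 5.27 and 5.11, those of I1b 5.51 and 4.93, those of E1 4.66 and 4.58, and those of I2 3.84 and 4.55. E2 and I3b overlapped at the top, and I2 lay lowest. Pcdhb17 (Entrez gene 93888) was highest in I1b, at 6.99 and 7.36, and lowest in I3a, at 4.26 and 4.39. Its other pools ran from 5.03 to 6.24. Pcdhb22 (Entrez gene 93893) had means from 5.12 in I1b to 6.94 in I2, with I3b at 6.83 and I3a at 6.61.

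A further probe set is annotated to 14 genes of the alpha cluster together and names no single gene. It read 8.95 in I2, 8.46 in I1b, 8.35 in E1, 8.29 in E2, 8.24 in I3b, 8.09 in I1a and 7.77 in I3a, a range of 1.18.

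Of the 12 genes, 10 had a range of at least 2 log2 units over the pool means, beside 19.46% of the 4409 genes that reached 5. Their median range was 2.65, against 1.13 over all those genes. A gene that reached 5 through 1 high pool had to vary to some degree, so this count is a description. Among genes at 5 or more in all 7 pools, Cdh2 and Pcdh11x had such a range, 2 of 4 family genes, beside 8.69% of 2991 genes. The highest pool was I2 for 4 of the 12 genes, and for 29.2% of all genes that reached 5.

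Other probe sets of the same genes were read as a check of the shape. Of the 12 genes, 6 had 11 other probe sets, of which 8 stayed under 4 in every pool, including all the others of Cdh7, Cdh10 and Pcdh19. The remaining 3 belong to Pcdh8, Pcdh10 and Pcdh11x. The chosen Pcdh8 probe set is of the kind that may cross-hybridise by its name, and the other, without that mark, gave 7.44 in I1b, 6.83 in E1, 4.69 in E2, 4.58 in I1a, 3.07 in I3a, 2.58 in I2 and 2.52 in I3b. For Pcdh10 it was again highest in I2, at 6.22, and E2 followed at 5.02. For Pcdh11x the order changed: I2 was highest at 6.65, and I3b, highest by the chosen probe set, came behind I1a and E1 too, at 4.69. The other Cdh10 probe sets, near the floor, read the same in E1 and E2, at 2.389 by one and 2.392 by the next. Neither showed E2 as a single low pool. The other Cdh7 probe set read 2.39 in I1a and was highest in I2, at 2.86. That of Pcdh19 was again highest in E1, at 3.365.

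**Figure D2:**
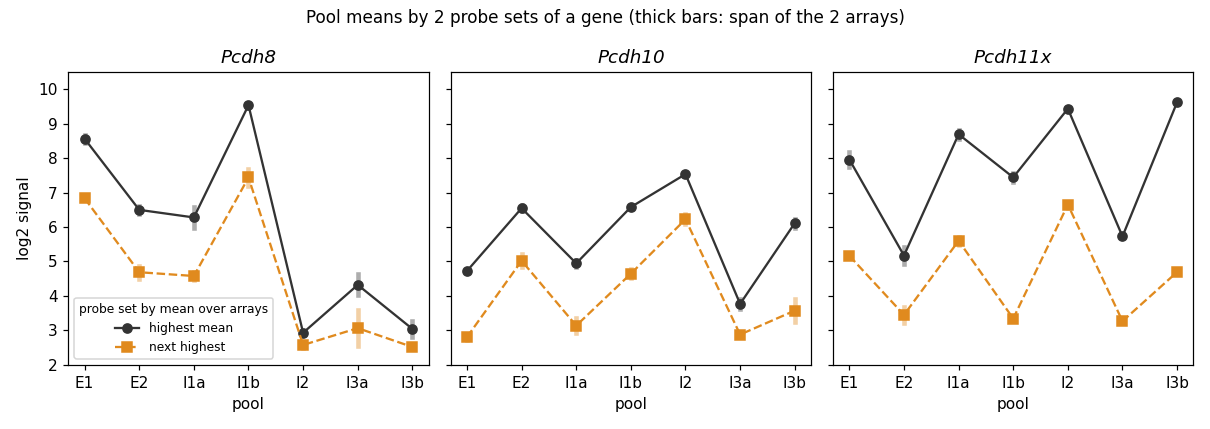
Pool means of log2 signal by the probe set with the highest mean (circles) and the next highest (squares) for Pcdh8, Pcdh10 and Pcdh11x, with the 7 pools on the x axis and thick bars for the span of the 2 arrays. The probe sets of Pcdh8 both peak in I1b, at 9.53 and 7.44, and those of Pcdh11x part in I3b, at 9.62 and 4.69.

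Excitatory and inhibitory types were compared on 7 pool means, 2 E pools against 5 I pools. None of the 12 genes was called, where a call takes a Benjamini-Hochberg adjusted p under 0.05 by limma over all 4409 genes plus pool means at least 1 log2 unit apart. Over all genes 0.0227% were called. An unadjusted p under 0.05 was met by 1 of the 12, beside 6.19% of all genes. That was Pcdh19, with means of 4.93 in the E pools and 3.47 in the I pools, a difference of 1.46 (SE 0.42, adjusted p 0.737). Pcdh19 passed the filter at 5 through E1 alone, a pool of the higher group, so its difference is given as a description. With values under 5 set to 5 it was 0.19 (adjusted p 0.79). It was also the 1 gene of the 12 whose E and I pools did not overlap, beside 12.2% of all genes. Pcdh8 differed by 2.31 (SE 1.74, adjusted p 0.809) and Pcdh11x by -1.62 (SE 1.16, adjusted p 0.802), and for each the pools overlapped. Without E1 these became 1.28 for Pcdh8 and -3.01 for Pcdh11x, and without E2 Pcdh11x differed by -0.23. With values under 5 set to 5 Pcdh8 differed by 1.37, and with the mean of its probe sets Pcdh11x differed by -1.01. The median difference of the 12 genes was -0.13, against -0.01 over all genes.

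The inhibitory families I1 and I3 were compared with 2 pools each. None of the 12 genes was called by limma, nor any of the 4409 (0%), and 3 of the 12 had an unadjusted p under 0.05, beside 11.2% of all genes. Pcdh8 had means of 7.91 in I1 and 3.68 in I3, a difference of 4.22 (SE 1.22, adjusted p 0.343), which was 2.59 without I1b. Cdh7 differed by 1.57 (SE 0.50, adjusted p 0.375), with 5.64 in I1 and 4.07 in I3. It passed the filter through I1a alone, a pool of the higher group, and differed by 0.92 without I1a and by 0.72 with values under 5 set to 5. Pcdhb22 was lower in I1, at 5.52 against 6.72, a difference of -1.20 (SE 0.34, adjusted p 0.337), or -0.79 without I1b. The I1 and I3 pools did not overlap for 5 of the 12 genes, near the 40% of all genes for which they did not. With all 14 arrays and the pool as a random block, a fit that adds arrays of the same pool to the residual, Pcdh8 was called (adjusted p 0.0149). It was the 1 family gene called in that fit, beside 114 of the 4409 genes. Over the alternatives for Pcdh8 the adjusted p ran from 0.0149 to 0.806.

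I2 was compared with the 4 other inhibitory pools as a lone pool assumed to vary like the rest. None of the 12 genes was called by limma, beside 0.885% of all genes, and 2 had an unadjusted p under 0.05, where 16.2% of all genes did. Cdh2 stood at 9.72 in I2 and 8.18 on average in the others, a difference of 1.54 (SE 0.52, adjusted p 0.215). Pcdh9 differed by 0.68 (SE 0.28, adjusted p 0.304). Larger differences with wider errors were seen for Pcdh8 at -2.86 (SE 2.25), Pcdh10 at 2.18 (SE 1.13) and Pcdh17 at -1.99 (SE 1.04), with adjusted p of 0.588, 0.408 and 0.412. Pcdh17 passed the filter at 5 through I3a alone, a pool of the higher group, so its difference is given as a description. Without I1b Pcdh8 differed by -1.62, and with values under 5 set to 5 Pcdh8 differed by -1.45 and Pcdh17 by -0.24. I2 lay outside the range of the other I pools for 7 of the 12 genes, beside 52.8% of all genes. With the pool as a random block on 14 arrays Cdh2 was called (adjusted p 0.0338), within 0.0338 to 0.412 over its alternatives. It was the 1 family gene called in that fit, beside 273 of the 4409 genes.

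The 3 remaining comparisons set single pools against each other on their arrays, so their p-values cover technical error only and compare pools, not cell types. Genes that passed the filter through 1 high pool were bound to vary, so counts of calls among the 12 are descriptions. Between the excitatory pools, 5 of the 12 genes were called, where 7.39% of all genes were (4.2% higher in E1, 3.2% lower). Pcdh11x (difference 2.79, SE 0.18, adjusted p 8.01e-07), Cdh10 (2.72, SE 0.26, adjusted p 1.69e-05) and Pcdh8 (2.06, SE 0.25, adjusted p 0.000112) were higher in E1. Pcdhb9 (-2.10, SE 0.24, adjusted p 8.15e-05) and Pcdh10 (-1.82, SE 0.16, adjusted p 1.03e-05) were higher in E2. With values under 5 set to 5, Cdh10 differed by 0.72 and was no longer called.

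Between I1a and I1b, 6 of the 12 genes were called, where 13.1% of all genes were (3.36% higher in I1a, 9.78% lower). Pcdh8 was lower in I1a (difference -3.26, SE 0.25, adjusted p 2.31e-06), as were Pcdh17 (-1.96, SE 0.35), Pcdh10 (-1.63, SE 0.16) and Pcdhb17 (-1.09, SE 0.16). Cdh7 (1.29, SE 0.24) and Pcdh11x (1.25, SE 0.18) were higher in I1a. Of these Cdh7 was tested only because I1a, where it was higher, reached 5. The adjusted p of the 5 genes other than Pcdh8 ran from 1.45e-05 to 0.00113. Over all genes the I1a and I1b pools differed by a median of -0.22, and 25.6% of all calls were higher in I1a. With arrays centred on their median that share was 47%, and with quantile normalization 44.6%. Centring ended the call of Pcdhb17 (-0.85) and added Cdh10 (1.003) and Pcdhb22 (1.05), higher in I1a, which makes 4 family genes higher and 3 lower. Quantile normalization also ended the call of Pcdhb17 and added none, which left 2 family genes higher and 3 lower. The call of Pcdh17 ended with values under 5 set to 5 (-0.03), and those of Cdh7 (0.98) and Pcdhb17 (-0.90) without the second array of I1b.

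Between I3a and I3b, 6 of the 12 genes were called, where 9.91% of all genes were (2.99% higher in I3a, 6.92% lower). Pcdh11x was lower in I3a, with a difference of -3.89 (SE 0.18, adjusted p 2.88e-08), and so were Pcdh10 (-2.34, SE 0.16), Pcdhb17 (-1.85, SE 0.16) and Cdh2 (-1.42, SE 0.12). Pcdh17 (2.23, SE 0.35) and Pcdh8 (1.28, SE 0.25) were higher in I3a. Pcdh17 was tested only because I3a, where it was higher, reached 5. The adjusted p of these 5 genes other than Pcdh11x ran from 8.82e-07 to 0.00241. Of all calls 30.2% were higher in I3a, and 41.2% with quantile normalization, where the family counts stayed at 2 and 4. By the other probe set, Pcdh11x differed by -1.43, Pcdh10 by -0.69 and Pcdh8 by 0.55. With values under 5 set to 5, Pcdh17 differed by 0.93 and Pcdh8 by 0, and neither was called, while Pcdh10 differed by -1.11 and Pcdhb17 by -1.18. Pcdh8 was also not called with the mean of its probe sets (0.91) or without the first array of I3a (0.98).

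**Figure D3:**
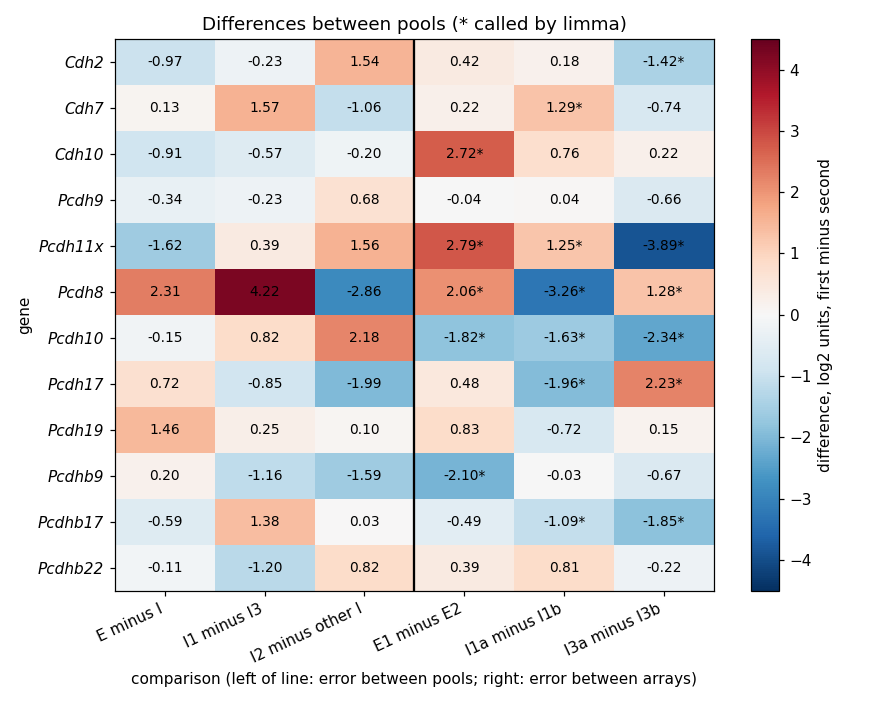
Differences in log2 units of the 12 genes (rows) in 6 comparisons (columns), first group minus second, with an asterisk where limma called the gene. The 3 columns left of the line use the spread between pools and hold no call, and the 3 on the right use the spread between arrays and hold 5, 6 and 6 calls.

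Related genes were read from 4 further lists: junction partners, other superfamily members, protocadherin effectors, and genes of shedding and promoter choice. Of 11 catenins and junction partners on the arrays, 5 reached 5. Ctnnb1, beta-catenin, stood at 10.66 in I1a to 11.92 in I2, and Ctnna1, an alpha-catenin, at 8.10 in E1 to 9.39 in I2. Nectin3, an adhesion protein of synaptic junctions, was higher in E1 than in E2 (difference 1.78, SE 0.26, adjusted p 0.000378), and Vcl, vinculin, which binds alpha-catenin under tension, was lower in I1a than in I1b (-1.39, SE 0.18, adjusted p 0.000104). Each was the 1 call among the 5 genes in its comparison, beside 7.39% of all genes for E1 against E2 and 13.1% for I1a against I1b. The list had no call in the 4 other comparisons. The probe sets of Ctnna1 and Nectin3 are of the kind that may cross-hybridise by their names, which was not tested.

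Of 13 other cadherin superfamily genes on the arrays, 5 reached 5. Ret, a receptor for glial cell line-derived factors with cadherin-like domains, read 9.23 in E1, 8.95 in I1b, 8.25 in I1a and 7.45 in E2, against 5.57 in I3b, 4.69 in I2 and 4.32 in I3a. It was called higher in E1 than in E2 (1.78, SE 0.19) and lower in I3a than in I3b (-1.25, SE 0.19). Dsg2, a desmosomal cadherin, was called higher in I1a than in I1b (3.28, SE 0.76, adjusted p 0.00432). It was tested only because I1a, where it was higher, reached 5. Dsg2 read 6.34 in I1a and 2.93 to 4.68 in the other pools. Clstn2, a calsyntenin of the postsynaptic membrane, stood at 10.04 in E2 to 12.25 in I2, and was not called. Each call in this list was the 1 call among the 5 genes in its comparison. Over all genes the shares called were 7.39% for E1 against E2, 13.1% for I1a against I1b and 9.91% for I3a against I3b.

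Of 9 protocadherin effectors on the arrays, 7 reached 5. Wasf1, a WAVE subunit of neurons, read 6.30 in I3b and 7.65 to 8.82 in the others, and was called higher in I3a than in I3b (2.34, SE 0.21, adjusted p 7.3e-06). Abi1, another WAVE subunit, was called higher in I1a than in I1b (1.16, SE 0.19, adjusted p 0.000503). Wasf1 and Abi1 were each the 1 call among the 7 genes in their comparison, beside 9.91% and 13.1% of all genes. Fyn, a Src-family kinase, differed by -1.72 between I1 and I3 (SE 0.30, adjusted p 0.194) and was not called. Of 7 genes for shedding of cadherins and for the choice of cluster promoters, 4 reached 5 and none was called by limma in any of the 6 comparisons. An unadjusted p under 0.05 was seen for 2 of these 4 in I1 against I3 (11.2% of all genes, with 0% called), and for 1 each in E1 against E2 (38.2%) and in I3a against I3b (41%). In both of these pairs the gene was Rad21. It differed by 0.73 between E1 and E2 (adjusted p 0.000861 by limma) and by -0.41 between I3a and I3b (adjusted p 0.0217). Both differences were under 1 log2 unit. Of the 4 genes that reached 5, Adam10, the protease that sheds N-cadherin, stood at 8.09 in I1a to 8.97 in I3b. Ctcf, which helps to choose promoters of the clusters, stood at 5.24 in I1a to 5.88 in I3a.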

How the data were processed

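Per the labels, cDNA amplified from single cells was pooled by type and made into biotin-labelled cRNA. The deposited values are log2 signals per probe set, and per the submitters' processing notes the authors used affy and GCRMA, whose versions are not given in the sources used here. No source states the log base. Base 2 is what GCRMA writes, and the values lie between 2.387 and 15.9. Of 30843 probe sets, 64 are controls, and 477 name several genes and were not used for single genes. Symbols come from the platform annotation, and positions and promoter sequences from RefSeq (GRCm38.p6), where all 46 family genes matched.

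Genes with a pool mean of 5 or more in at least 1 pool were kept, and limma 3.58.1 (R 4.3.3), with lmFit and eBayes with an intensity trend, was fitted on all 4409 of them. Comparisons of groups of types used 7 pool means, and those of single pools all 14 arrays. Genes named are all family genes at 5 or more. The fits were tested on simulated data. The family, the lists and the tests were chosen with earlier results of these data known. Alternatives are given in the closing section. Arrays have no read depth, and 2 arrays a pool limit the precision. Figures used matplotlib 3.10.9.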

Additional observations from a re-analysis of the deposited data

How the results depend on the processing

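In every alternative run for them, the differences of 1 or more log2 units that the text gives for the 12 genes kept their sign, except Pcdh8 between I3a and I3b, at 0 with values under 5 set to 5. No family gene was called in E against I in any of them. Calls among the family genes moved from 5 to 3 for E1 against E2 with a filter at 7 and with the mean of all probe sets. For I1a against I1b they moved from 6 to 4 with a filter at 7 and with mean probe sets, and to 7 without a filter and with centring. Quantile normalization ended the call of Pcdhb17 in that pair. For I3a against I3b the calls moved from 6 to 4 with mean probe sets and with values under 5 set to 5. They moved from 0 to 1 with the pool as a random block in I1 against I3 and in I2 against the other I pools. Of the 46 genes, 6 reached 7 in a pool. For genes apart from all other pools, quantile normalization and centring, tried for this count after seeing the data, gave 2 in place of 1. Centring put 66.7% of the I2 calls over all genes higher in I2, in place of 79.5%, with no family gene among them.

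Counts over all genes moved more. For E against I, 1 became 2 without a filter, with a filter at 7 and with values under 5 set to 5, 0 without the trend, 6 with the random block, and 0 to 2 in the leave-outs (2 without E1, 0 without E2, I1a, I2, I3a or I3b or without array 1 of each pool). For I1 against I3, 0 became 1 without a filter or without the trend, 2 with values under 5 set to 5 and 114 with the random block, and stayed 0 when any pool was left out. For I2 against the other I pools, 39 became 164 without a filter, 0 with a filter at 7, 13 with mean probe sets, 107 with values under 5 set to 5 and 273 with the random block, and 4 to 53 in the leave-outs (4 without I3a, 8 without E1, E2 or I1a). Leaving out I2 itself gives no comparison. A filter at 7, mean probe sets and values under 5 set to 5 gave 193, 187 and 217 for E1 against E2 in place of 326. They gave 304, 309 and 358 for I1a against I1b in place of 579, and 218, 246 and 256 for I3a against I3b in place of 437. A filter at 7 leaves fewer genes to test. The causes of the other shifts were not tested. Leaving out single arrays moved these pair counts to 313 to 361, 522 to 646 and 396 to 481, and the family counts to 5 to 6 in each pair.

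Technical replicate numbers are shared by all pools. With the replicate number as a replicate block, 5, 6 and 6 family genes and 327, 579 and 436 of all genes were called in the 3 pairs, so it moved none by over 1.5 times. Deviations of same-numbered arrays correlated at -0.117 to 0.212, not over 0.1 in every pair, and no source says how the numbers were given, so the block was not used in the main comparisons. Signals near the floor, as for Pcdh17 in I2, limit what these arrays can tell apart.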

Other observations

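Pairs of the 12 genes were set against each other over the 7 pool means, as a description of 66 pairs with no test, since each point is 1 pool and all genes share its arrays. The highest r was that of Cdh2 and Pcdh9 (r = 0.97, rho = 0.857) and the highest rho that of Cdh2 and Pcdh11x (r = 0.844, rho = 0.929). The lowest r was that of Pcdh8 and Pcdhb22 (r = -0.846, rho = -0.857) and the lowest rho that of Pcdh9 and Pcdh17 (r = -0.744, rho = -0.893). The median r over the pairs was -0.13.

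Below the threshold of 5, 2 type II cadherins had their own shapes. Cdh6 had means of 4.60 in I2, 3.53 in I1b and 3.18 in E2, and of 2.60 or below in the other pools. The other Cdh6 probe set stayed at 2.387 to 2.388 in every pool and showed no such shape. Cdh22 stood at 4.01 in E1, 3.87 in E2 and 3.63 in I1b, where its arrays parted at 4.43 and 2.82, and at 2.62 or below in the other pools.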
